A study of Mus musculus with 460 samples.

Results

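The low-Cxcr4 Rgs5 cells were single mouse cells with more counts of Rgs5, a pericyte gene, than of Pdgfra, a fibroblast gene, and with under 100 counts per 1000000 (CPM) of the chemokine receptor gene Cxcr4. They made up 22.4% of the 460 cells measured (exact Clopper-Pearson 95% interval 18.7 to 26.5), namely 72 cells with at least 2 times as many Rgs5 as Pdgfra counts and 31 cells closer to the line between them. Every cell carries the label CAF (cancer-associated fibroblast) and the disease state lung adenocarcinoma, all come from 1 mouse strain, and no treatment, age or healthy control is named. The cells were set against those with at least as many Pdgfra as Rgs5 counts (Pdgfra cells, 55.9% of all) and, where it shows a difference, against the 100 Rgs5 cells with 100 CPM of Cxcr4 or more (high-Cxcr4 cells). The sets were chosen by Rgs5, Pdgfra and Cxcr4, so the levels of those 3 genes are no result. Since no label ties a cell to an animal or culture, the whole table is 1 sample and nothing was tested: there is no p-value, and all intervals cover counting error only.

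Pericytes are mural cells that wrap capillaries, share a basement membrane with the endothelium and depend on platelet-derived growth factor signals from it through Pdgfrb. They respond to vasoactive ligands through receptors, cyclic GMP and potassium channels, and Notch3 signalling supports their identity. Vascular smooth muscle cells of larger vessels are their contractile relatives, with high Myh11 and Acta2, and myofibroblasts carry Acta2 as well. Fibroblasts are marked by Pdgfra and interstitial matrix genes such as Dcn and Lum.

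At the boundary of the rule, the 5 cells closest under the Cxcr4 limit had 73.04 to 99.7 CPM and the 5 closest above it 104.3 to 143.8 CPM, while 49 low-Cxcr4 cells had no Cxcr4 count. The 5 cells nearest the other limit had 1 or 2 more Rgs5 than Pdgfra counts, and their closest neighbours outside had 1 to 6 fewer. None of the low-Cxcr4 cells lacked Pdgfra counts. The cells held a median of 78512 counts (25029 to 240496) from a median of 7134 genes, against 96654 counts in the Pdgfra cells and 76896 in the high-Cxcr4 cells. A single count was worth 12.7 CPM at the median depth of the low-Cxcr4 cells, so levels near that value rest on few molecules.

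Among the other markers that define the label, Mcam, Abcc9, Cspg4 and Postn, every gene was more than 2-fold higher on average than in the Pdgfra cells. Of these cells, 64 lay above the median Pdgfra cell in all 4 (62.1%, interval 52.04 to 71.5), against 25 Pdgfra cells (9.73%) and 95 of 100 high-Cxcr4 cells, and 3 lay above it in none. These 4 genes are part of the label itself, so the counts describe the cells and do not test the label. The summed CPM of 30 pericyte markers ran from 1233 over a median of 20830 to 34280. It lay above the 95th percentile of the Pdgfra cells in 65 cells, within their middle 90% in 34 and below it in 4. The cells thus spread over the ranges of both neighbouring sets, and no type name is used for them below.

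The genes described next are the Notch target gene Hey2, the channel gene Abcc9 and the smooth muscle actin gene Acta2, and their promoters are shown because the first 2 were higher in these cells while Acta2 was not. Each is the run of 250 bases before the transcription start in RefSeq, build GRCm38.p6, on the gene's own strand. Capitals mark TGGGAA, a core motif of the Notch effector RBPJ, or TTCCCA, the same letters on the opposite strand. The windows lie on the minus strand at chr10:30842784-30843033, chr6:142702275-142702524 and chr19:34255374-34255623.
Hey2: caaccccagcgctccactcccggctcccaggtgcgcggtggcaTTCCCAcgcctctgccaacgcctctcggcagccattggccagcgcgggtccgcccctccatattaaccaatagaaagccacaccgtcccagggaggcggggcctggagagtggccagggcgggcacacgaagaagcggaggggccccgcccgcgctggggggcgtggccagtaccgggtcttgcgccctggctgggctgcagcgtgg
Abcc9: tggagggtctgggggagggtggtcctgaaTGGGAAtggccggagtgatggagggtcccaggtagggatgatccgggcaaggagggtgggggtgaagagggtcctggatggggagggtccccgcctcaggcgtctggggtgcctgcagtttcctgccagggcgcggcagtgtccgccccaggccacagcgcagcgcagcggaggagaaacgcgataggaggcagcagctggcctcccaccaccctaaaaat
Acta2: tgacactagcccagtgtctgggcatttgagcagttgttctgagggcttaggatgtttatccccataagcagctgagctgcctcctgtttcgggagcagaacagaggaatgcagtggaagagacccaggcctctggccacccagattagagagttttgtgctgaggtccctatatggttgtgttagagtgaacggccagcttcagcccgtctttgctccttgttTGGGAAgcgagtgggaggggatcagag
The motif began 27 bases before the start of Acta2 and near the far end of the other windows. Of 39 named pericyte, contractile and Notch genes, 25 were matched to a promoter, and 8 of these held the motif on either strand, against 21.6% of 32851 promoters searched over the same length. The CArG box of smooth muscle genes, in its strict form without mismatches, was in none of the 25 and in 1.47% of all promoters. A match is a description of letters and not of binding.

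Across the transcriptome, 11871 genes passed the filter for the comparison with the Pdgfra cells. It asked for a count in at least 10% of the cells of both sets pooled. The mean of the 2 set means had to be at least 5 CPM. The Pdgfra cells are the larger set, so genes counted only in them passed the 10% limit at a lower share of their set. A gene was called higher or lower where the ratio of mean CPM, with 1 CPM added to each mean, was at least 2-fold. By that measure 3.17% of the genes tested were higher in the low-Cxcr4 Rgs5 cells and 3.65% were lower, and the median gene differed by 0.000293 on the log2 scale. These shares are the background for the counts of gene lists against the Pdgfra cells below. Means follow a few high cells in sparse genes: by medians, 30.9% of the higher and 37.4% of the lower genes were also past 2-fold. The table columns fall into stretches with and without reads of the surfactant gene Sftpc, and the labels do not say what these stretches are. With 30 and 73 of the low-Cxcr4 cells in the stretches without and with it, 48.9% of the higher and 52.2% of the lower genes were past 2-fold in both.

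**Figure D1:**
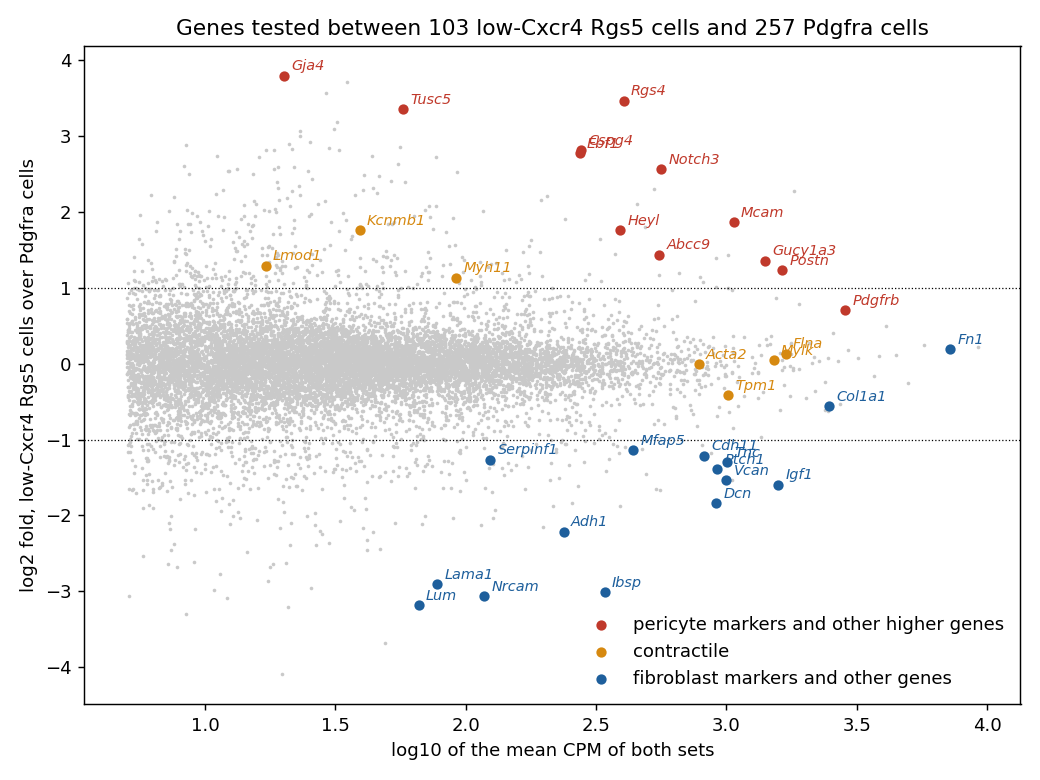
Each point is 1 of 11871 genes, with the log10 of its mean CPM over both sets on the horizontal axis and the log2 fold of the low-Cxcr4 Rgs5 cells over the Pdgfra cells on the vertical axis; dotted lines mark 2-fold. Rgs4 (3.46), Cspg4 (2.81) and Notch3 (2.56) stood above the upper line, Acta2 and Mylk on 0, and Dcn (-1.84), Ibsp (-3.01) and Nrcam (-3.06) below the lower line.

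Pericyte genes made up the clearest group. Of the 28 pericyte markers that passed the filter, 19 were past 2-fold higher, none was lower, and the median log2 fold was 1.54. The list and the rule describe the same kind of cell, so this count is a description of the selection as much as of the cells. Notch3, the receptor through which pericytes receive Notch signals, had a lowest, median and highest level of 12.1, 844 and 2781 CPM in the low-Cxcr4 cells and of 0, 76.4 and 1501 CPM in the Pdgfra cells. The summed counts gave 893 CPM (exact Poisson 95% interval 873 to 913) against 167.8 (162.8 to 172.9). The 2 sets overlapped, yet 91.3% of the low-Cxcr4 Rgs5 cells lay above the median Pdgfra cell.

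Mcam, an adhesion molecule of the vessel wall, ran from 40.1 over 1471 to 4172 CPM in the low-Cxcr4 cells and from 8.69 over 313.7 to 3002 CPM in the Pdgfra cells (log2 fold of the means 1.86). Cspg4, the NG2 proteoglycan, had no count in 6.8% of the low-Cxcr4 cells and a median of 424.1 CPM, against 20.2 CPM in the Pdgfra cells (2.81). Its highest cells reached 2019 and 1430 CPM. Rgs4, a relative of Rgs5 that shortens G protein signals, was among the largest differences of any well-detected gene, with medians of 432.7 and 36.6 CPM and a log2 fold of 3.46. All 3 genes overlapped between the sets, because low cells occurred in each.

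Genes of vessel tone were past 2-fold higher in 11 of the 20 tested vasoactive receptors and cyclic nucleotide enzymes, with 9 within 2-fold and none lower. The median log2 fold of the list was 1.02 by means, 0.57 with 10 CPM added and 0.0 by medians over cells, since many of these genes had a median of 0 in both sets. Gucy1a3 and Gucy1b3, the subunits of the nitric oxide receptor guanylate cyclase, averaged 2023 and 498 CPM against 790 and 159.1. The endothelin receptor gene Ednra averaged 1223 against 606 CPM, and the adrenergic receptor gene Adra1d 14.9 against 1.62 CPM with no count in most cells. Pde5a, which breaks down cyclic GMP, was abundant in both sets (2263 and 1876 CPM) and stayed within 2-fold. Adcy8, an adenylyl cyclase gene, averaged 28.6 against 3.48 CPM, but its median was 0 and its highest cell had 1090 CPM. The summed level of the list was 170.6% of that in the Pdgfra cells and 68.7% of that in the high-Cxcr4 cells. Of 21 tested against the high-Cxcr4 cells, 3 were higher and 2 lower, beside 5.48% and 2.32% of all genes.

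Of 14 ion channel genes tested, 6 were past 2-fold higher and 1 lower, against 3.17% and 3.65% of all genes. Abcc9 and Kcnj8, which form the ATP-sensitive potassium channel of pericytes, had medians of 497.5 and 143.4 CPM against 180.9 and 44.4 CPM, with log2 folds of 1.43 and 1.33. Kcnk3, a background potassium channel, averaged 56.7 against 5.78 CPM (3.09). Kcnmb1, a regulatory subunit of the calcium-activated potassium channel, averaged 60.9 against 17.3 CPM (1.76), and Cacnb2, a calcium channel subunit, was lower at 34.2 against 74.5 CPM (-1.10). The summed level of the ion channel list was 189.6% of that in the Pdgfra cells and 66% of that in the high-Cxcr4 cells. Of 14 tested against the high-Cxcr4 cells, 0 were higher and 3 lower, beside 5.48% and 2.32% of all genes.

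Of 11 Notch pathway genes tested, 4 were past 2-fold higher, 7 within 2-fold and none lower (median log2 fold 0.75, and 1.05 by medians over cells). The 4 were Notch3, its targets Heyl and Hey2, and the ligand gene Jag1, at a log2 fold of 1.01. Heyl had a median of 518.5 CPM (0 to 2035) against 72.6 CPM (0 to 1436), and 89.3% of the low-Cxcr4 cells lay above the median Pdgfra cell. Hey2 averaged 69.9 against 11.7 CPM (2.49), with a median of 17.8 CPM in the first set and no count in most cells of the second. Hes1 (59.03 and 65.2 CPM), Notch2 (557 and 424.1 CPM) and Rbpj (a log2 fold of -0.22) stayed within 2-fold. Outside that list, Neurl1b, a ubiquitin ligase that acts on Notch ligands, averaged 45.3 against 5.11 CPM (2.92).

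Other pericyte genes past 2-fold were sparser. Gja4, the gap junction gene for connexin 37, averaged 38.3 against 1.84 CPM (3.79), with a count in 47.6% of the low-Cxcr4 cells. Higd1b averaged 37.8 against 4.24 CPM, Plxdc1 41.8 against 4.37 CPM and the amine oxidase gene Aoc3 58.7 against 5.55 CPM, each with a median of 0. Cox4i2 and Ndufa4l2, genes of mitochondrial respiratory subunits that pericytes carry, had medians of 54.6 and 72.6 CPM against 0 and 7.78 CPM. Pdgfrb itself had medians of 3794 and 2089 CPM and a log2 fold of 0.70, below the 2-fold limit, with 81.6% of the cells above the median Pdgfra cell.

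The other leading genes among those detected in at least 50% of the cells were of mixed kinds. Tusc5, a gene of insulin-responsive glucose transport, averaged 105.1 against 9.43 CPM (3.35). It reached 100 CPM in 29.1% of the cells, against 2.33% of the Pdgfra cells and 57% of the high-Cxcr4 cells. The transcription factor gene Ebf1 had medians of 351.8 and 20.2 CPM (2.77). Cbfa2t3, a transcriptional corepressor, averaged 98.6 against 12.8 CPM (2.85), Rasl12 53.4 against 6.60 CPM (2.84) and Emid1 95.6 against 14.6 CPM (2.63). The imprinted gene Rtl1 averaged 134.8 against 19.6 CPM (2.72), the small GTPase gene Rem1 42.95 against 6.55 CPM (2.54) and Mapt, the gene for tau, 79.3 against 13.4 CPM (2.48). Pdzd2, a PDZ domain protein, had the highest mean level of all genes past 2-fold higher, at a median of 2995 against 306.4 CPM (2.28).

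Flt1, a receptor for vascular endothelial growth factor, averaged 158.8 against 26.8 CPM (2.52). It reached 100 CPM in 25.2% of the cells, against 6.23% of the Pdgfra cells and 46% of the high-Cxcr4 cells. Flt1 is also an endothelial gene, so the other endothelial markers are given beside it. Of the 7 that passed the filter, 2 were higher and 1 lower. The defining genes Pecam1 and Cdh5 had a count in 11.7% and 9.71% of the low-Cxcr4 cells and in 18.3% and 12.1% of the Pdgfra cells. Kdr averaged 44.5 against 9.63 CPM, and 10 cells held 98.4% of that sum; in the cells with a 2-fold margin between Rgs5 and Pdgfra its log2 fold was -0.71. Summed over the 11 endothelial markers, the low-Cxcr4 cells had 11.2 to 4635 CPM with a median of 464, against 533 in the Pdgfra cells.

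**Figure D2:**
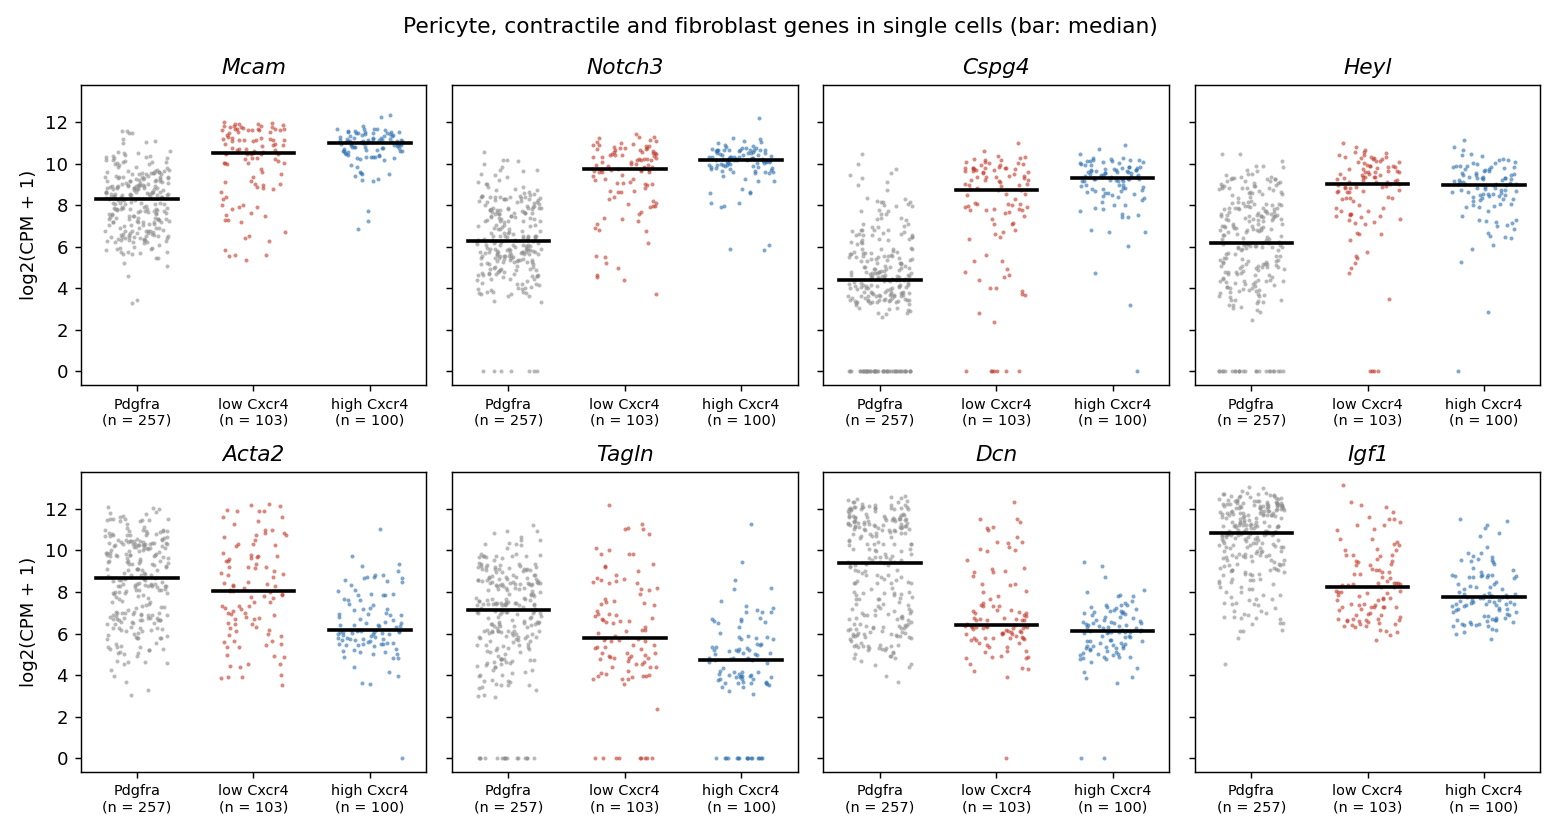
Each point is 1 cell, with log2(CPM + 1) on the vertical axis and the 3 sets of cells on the horizontal axis; black bars are medians. Medians of Mcam, Notch3, Cspg4 and Heyl in the low-Cxcr4 Rgs5 cells sat above those of the Pdgfra cells, Acta2 (8.03 against 8.66) and Tagln below them with wide spreads, and Dcn and Igf1 below them.

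The mean level of the contractile genes was close to that of the Pdgfra cells, while the median cell was lower in several of them. The summed CPM of 30 contractile genes ran from 4799 over a median of 12042 to 48141 in the low-Cxcr4 cells and from 4869 over 12534 to 29703 in the Pdgfra cells, so the ranges nearly coincided at the low end. The mean was 102.3% of that in the Pdgfra cells, and 46.6% of the cells lay above the median Pdgfra cell. Of 28 contractile genes tested, 5 were past 2-fold higher and none lower (median log2 fold 0.11, against 0.000293 over all genes, and -0.019 by medians over cells). Acta2, the smooth muscle actin gene, ran from 10.7 to 4830 CPM, against 7.29 to 4378 CPM in the Pdgfra cells, with medians of 8.03 and 8.66 on the log2(CPM + 1) scale. Its means were 782 and 784 CPM, and its summed counts gave 816 CPM (797 to 836) and 831 CPM (820.2 to 843). Of the low-Cxcr4 cells, 40.8% lay above the median Pdgfra cell for Acta2, so the equal means came with a lower median. Tagln, the gene for transgelin, named here after its values were seen, likewise had means of 296.6 and 277.8 CPM (log2 fold 0.09) but medians of 54.7 and 138.9 CPM, with 32.04% of the cells above the median Pdgfra cell.

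The other abundant contractile genes differed by less than 2-fold in their means. Mylk, the myosin light chain kinase gene, had medians of 1463 and 1494 CPM, and the caldesmon gene Cald1 had 1235 and 1280 CPM. Non-muscle myosin Myh9 (means 1448 and 1221 CPM), filamin A (Flna; 1765 and 1615), Lpp (1099 and 1120) and Csrp1 (937 and 1054) were close in both sets. Tpm1, for tropomyosin, was lower at a median of 686 against 1064 CPM (log2 fold of the means -0.42), with 32.04% of the cells above the median Pdgfra cell.

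A small number of the cells carried the smooth muscle genes. Myh11, the smooth muscle myosin gene, averaged 126.3 against 57.1 CPM (log2 fold 1.13) with a median of 0 in both sets, and 10 of the low-Cxcr4 cells held 94.3% of its sum. A level of 100 CPM or more occurred in 11 low-Cxcr4 cells (10.7%, interval 5.45 to 18.3), in 22 Pdgfra cells (8.56%, 5.44 to 12.7) and in 7 of the 100 high-Cxcr4 cells (7%, 2.86 to 13.9). These intervals overlapped. In the 11 cells Acta2 ran from 101.6 over a median of 3791 to 4830 CPM, against at most 3127 CPM and a mean of 482.9 CPM in the other 92 low-Cxcr4 cells. Tagln had medians of 1120 and 45.7 CPM in the 11 and the 92.

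A count of the smooth muscle genes Actg2 and Lmod1 was present in 8 of the 11 cells each, and in 2 and 9 of the other 92. Mcam and Notch3 were high in both, with medians of 2994 and 950 CPM in the 11 and of 1457 and 825 CPM in the 92. Without cells that had 100 CPM or more of Myh11, in every set, the median log2 fold of the contractile list was -0.05. These cells were removed by their level of a smooth muscle gene, after the data were seen. The value therefore does not show what the small positive one rested on. Ppp1r14a, an inhibitor of myosin phosphatase, was not limited to a few cells. A count was present in 86.4% of the low-Cxcr4 cells, with a median of 56.7 against 16.3 CPM (log2 fold 1.37).

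Most fibroblast markers stayed within 2-fold of the Pdgfra cells, but lower ones were more frequent than among all genes. Of 23 tested, 16 were within it, 6 were past 2-fold lower (Dcn, Lum, Dpt, Mfap4, Mfap5 and Serpinf1) and 1, the collagen gene Col13a1, was higher. Over all genes tested, 3.65% were lower and 3.17% higher. The median log2 fold of the list was -0.42 by means but -0.035 by medians over cells. Their summed CPM ran from 1963 over 19383 to 49423, against 8273, 24022 and 51195 in the Pdgfra cells. It averaged 85.8% of the level in the Pdgfra cells, and 93 of the low-Cxcr4 cells lay within the middle 90% of the Pdgfra cells. Dcn, the collagen-binding proteoglycan decorin, had a lowest, median and highest level of 0, 82.7 and 5096 CPM, against 11.9, 672 and 6275 CPM. Only 15.5% of the low-Cxcr4 cells lay above the median Pdgfra cell for Dcn, and 10 cells held 59.04% of its sum.

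Lum, another proteoglycan of interstitial collagen, averaged 12.3 against 120 CPM, with a highest cell of 224.1 against 4734 CPM. Its log2 fold was -1.46 in the columns without Sftpc and -3.79 in the others, so its size differed by stretch of the table. Dpt averaged 31.2 against 73.8 CPM, Mfap5, a microfibril gene, 273.5 against 603 CPM and Serpinf1 72.7 CPM at a log2 fold of -1.26. Mfap4, an elastic fibre gene, averaged 55.1 against 111.2 CPM, at the 2-fold limit.

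The broadly expressed matrix genes stayed within 2-fold. Fn1, for fibronectin, had medians of 7261 and 6666 CPM and the highest mean level of the genes named here. Col1a1 and Col1a2, the chains of type I collagen, had medians of 1590 and 1904 CPM against 2683 and 3048 CPM (log2 folds -0.56 and -0.54). Col3a1 averaged 1694 against 2329 CPM, Sparc 2696 against 2640, Fbn1 1497 against 2008, Vim 955 against 826 and Thy1 458.4 against 345.1 CPM. Of 16 collagens tested, 2 were higher (Col5a3 and Col13a1) and 2 lower (Col11a1 and Col23a1), against 3.17% and 3.65% of all genes. Col5a3 was at a median of 930.3 against 82.7 CPM (2.30), and Col11a1 was lower at a mean of 1.26 against 13.1 CPM.

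The summed level of the basement membrane genes was 133.1% of that in the Pdgfra cells, 77.7% of the cells lay above the median Pdgfra cell, and the median log2 fold of the 17 genes was 0.46 (0.17 by medians over cells), with 1 past 2-fold higher and 1 lower. In the 72 cells with Rgs5 at least 2 times Pdgfra, set against Pdgfra cells with the same margin, that median was 0.10. Col4a1 and Col4a2, the main chains of type IV collagen, had medians of 2342 and 1936 CPM against 1202 and 1008 CPM. Col15a1 averaged 1104 against 521 CPM (1.08), and Col18a1 818 against 417.8 CPM (0.97). Nid1, for nidogen, was level at medians of 1578 and 1573 CPM, and the laminin gene Lama5 was lower at a mean of 87.6 against 187.6 CPM.

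**Figure D3:**
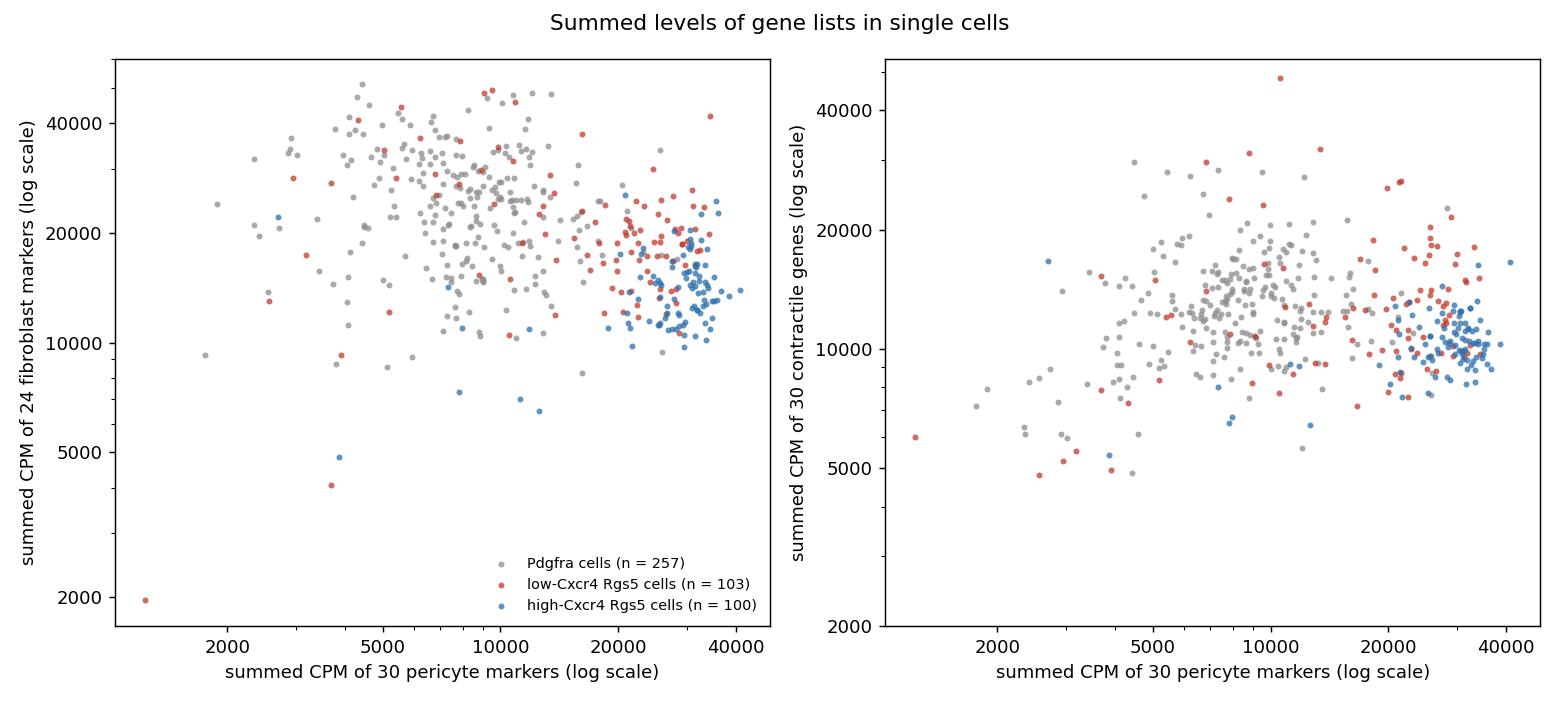
Each point is 1 cell; both horizontal axes give the summed CPM of 30 pericyte markers and the vertical axes the summed CPM of 24 fibroblast markers (left) or 30 contractile genes (right), all on log scales. The low-Cxcr4 Rgs5 cells spread from the range of the Pdgfra cells to that of the high-Cxcr4 cells on the horizontal axis, and 1 of them lay at 1233 CPM of pericyte and 1963 CPM of fibroblast markers.

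Of 14 inflammatory CAF genes tested, 6 were past 2-fold lower, 7 within 2-fold and 1 higher. The median log2 fold of the list was -0.76 by means and 0.0 by medians over cells, and its summed level was 53.8% of that in the Pdgfra cells. Lif, a cytokine gene, averaged 71.7 against 323.5 CPM (-2.16). Cxcl12, the ligand of Cxcr4, was named for that reason after its values were seen; it had a median of 15.1 CPM (0 to 1289) against 83.2 CPM (0 to 3862) and a log2 fold of -1.36. The insulin-like growth factor gene Igf1 ran from 51.4 over 304.7 to 8994 CPM, against 21.9, 1845 and 8373 CPM in the Pdgfra cells (-1.60). Pappa, which cleaves an IGF-binding protein, averaged 14.1 against 66.8 CPM (-2.17), and Grem1, a BMP antagonist, 111.5 against 400 CPM (-1.83).

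Genes of Hedgehog and Wnt signalling were lower in 5 of 18 tested and higher in none, against 3.65% and 3.17% of all genes. Ptch1, the Hedgehog receptor and target gene, had a median of 241.5 against 1104 CPM (-1.39), with 13.6% of the cells above the median Pdgfra cell. Wnt11 averaged 26.2 against 72 CPM (-1.42), and outside that list Wif1, a Wnt inhibitor, 49.2 against 205.2 CPM (-2.04). Gli3 (132.3 and 134.5 CPM), Dkk3 (539.5 and 680) and Tcf4 (1049 and 1184) stayed within 2-fold.

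Of 25 guidance genes, 6 were past 2-fold lower and 1 higher, against 3.65% and 3.17% of all genes. Robo2, a Slit receptor, had medians of 484.5 and 1184 CPM, with 6.80% of the low-Cxcr4 cells above the median Pdgfra cell. Sema3c and Sema5a averaged 44.6 and 81.7 CPM against 145.4 and 217.4 CPM. Sema3d was the exception, at 48.4 against 12.6 CPM, but 10 cells held 97.9% of its sum, and in the cells with the 2-fold margin its log2 fold was -0.52.

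The 15 well-detected genes with the largest deficits were led by adhesion, matrix and growth factor genes. Nrcam, a neuronal-type adhesion gene, had a median of 10.2 CPM (0 to 362.6) against 89.7 CPM (0 to 2344), a log2 fold of -3.06. Ibsp, for bone sialoprotein, had close medians of 43.8 and 56.8 CPM but means of 74.6 and 608 CPM (-3.01), since its highest cells were Pdgfra cells. Lama1, a laminin chain, averaged 17.6 CPM at a log2 fold of -2.90, and the growth factor gene Gdnf 4.96 against 35.8 CPM (-2.63). Adh1, an alcohol dehydrogenase, had medians of 25.7 and 190 CPM (-2.21). The cadherin relatives Fat3 and Pcdh17 averaged 13.9 and 42.1 CPM against 79.7 and 186.8 CPM.

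The remaining 6, Wif1 among them, were lower by 1.93 to 2.11 on the log2 scale. Means in the low-Cxcr4 and the Pdgfra cells were 24.95 and 110.9 CPM for Tmem119, 12.02 and 53.9 for the endothelin gene Edn3, and 27.3 and 112.1 for Egfem1. They were 10.2 and 42.7 CPM for Kctd15 and 14.9 and 59.8 for Thsd7a. Further matrix and adhesion genes past 2-fold lower were Vcan, for versican, with a median of 181.6 against 1316 CPM, Tnc, for tenascin C, with 290.3 against 1072 CPM, and the cadherin gene Cdh11 with 405.9 against 1092 CPM.

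Transcription factors of mesenchyme differed little as a group: of 36 tested, 3 were higher and 1 lower, with a median log2 fold of 0.09. Over all genes, 3.17% were higher and 3.65% lower. The higher ones included Ebf1 and Epas1, the hypoxia-inducible factor HIF-2 alpha, with a median of 715 against 266.3 CPM (1.17). The third was Meox1, at a log2 fold of 1.02, and the lower one was Tbx3, with medians of 194.4 and 427.9 CPM (-1.09). Immediate early genes, which respond to cell handling within minutes, had 1 of 20 lower (Nr4a2, 132.7 CPM at a log2 fold of -1.61) and none higher. None of 11 heat shock and 13 unfolded protein response genes was past 2-fold. Of 9 S phase and 6 G2/M genes tested, 3 each were lower and none higher, at means of at most 82.5 CPM.

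Against the high-Cxcr4 cells, 11661 genes were tested, of which 5.48% were higher and 2.32% lower in the low-Cxcr4 cells. By medians, 19.9% and 33.6% of these were past 2-fold. None of 30 pericyte markers was past 2-fold higher and 11 were lower (median log2 fold -0.70, against -0.01 over all genes). Higd1b was among the lowest, with 22.3% of the low-Cxcr4 cells (14.7 to 31.6) and 74% of the high-Cxcr4 cells (64.3 to 82.3) at 50 CPM or more. The synaptic gene Rims1 averaged 6.59 against 51.5 CPM, Adcy8 28.6 against 182.9, the leukotriene receptor gene Cysltr1 12.3 against 67.9 and Clstn2 75.9 against 340.2 CPM. None of 12 Notch genes was past 2-fold between the 2 Rgs5 sets, and Heyl had medians of 518.5 and 498 CPM. Notch3 was less frequent at high levels. It reached 500 CPM in 69.9% of the low-Cxcr4 cells (60.1 to 78.55) and 89% of the high-Cxcr4 cells (81.2 to 94.4).

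Fibroblast genes were higher than in the high-Cxcr4 cells in 12 of 22 tested and lower in none (median log2 fold 1.15). Contractile genes were higher in 6 of 25 and lower in none (0.49), and myofibroblastic CAF genes in 8 of 13 (1.59). Acta2 had medians of 8.03 and 6.15 on the log2(CPM + 1) scale, and 23 low-Cxcr4 cells (22.3%, 14.7 to 31.6) against 1 of 100 high-Cxcr4 cells (1%, 0.0253 to 5.45) reached 1000 CPM. Dcn averaged 398.7 against 95.7 CPM, with medians of 82.7 and 67.8 CPM. A level of 100 CPM or more occurred in 45.6% against 29% of the cells, and 1000 CPM or more in 15 low-Cxcr4 cells (14.6%, 8.39 to 22.9) against 0 of 100 (up to 3.62%). The leading higher genes were Sod3, an extracellular superoxide dismutase (21.9 CPM in the high-Cxcr4 cells and a log2 fold of 3.19), Bmp3 (97.3 against 12.1), P4ha3, a collagen prolyl hydroxylase (121.3 against 15.5), Emp1 (107.1 against 15.2), Megf10 (49.2 against 6.62), Cped1 (121.2 against 17.6), and Loxl1, which crosslinks elastin (91.8 against 14.99). Itih5 was the largest deficit, at a mean of 28.6 CPM and a log2 fold of -3.70, with medians of 0 and 43.9 CPM.

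**Figure D4:**
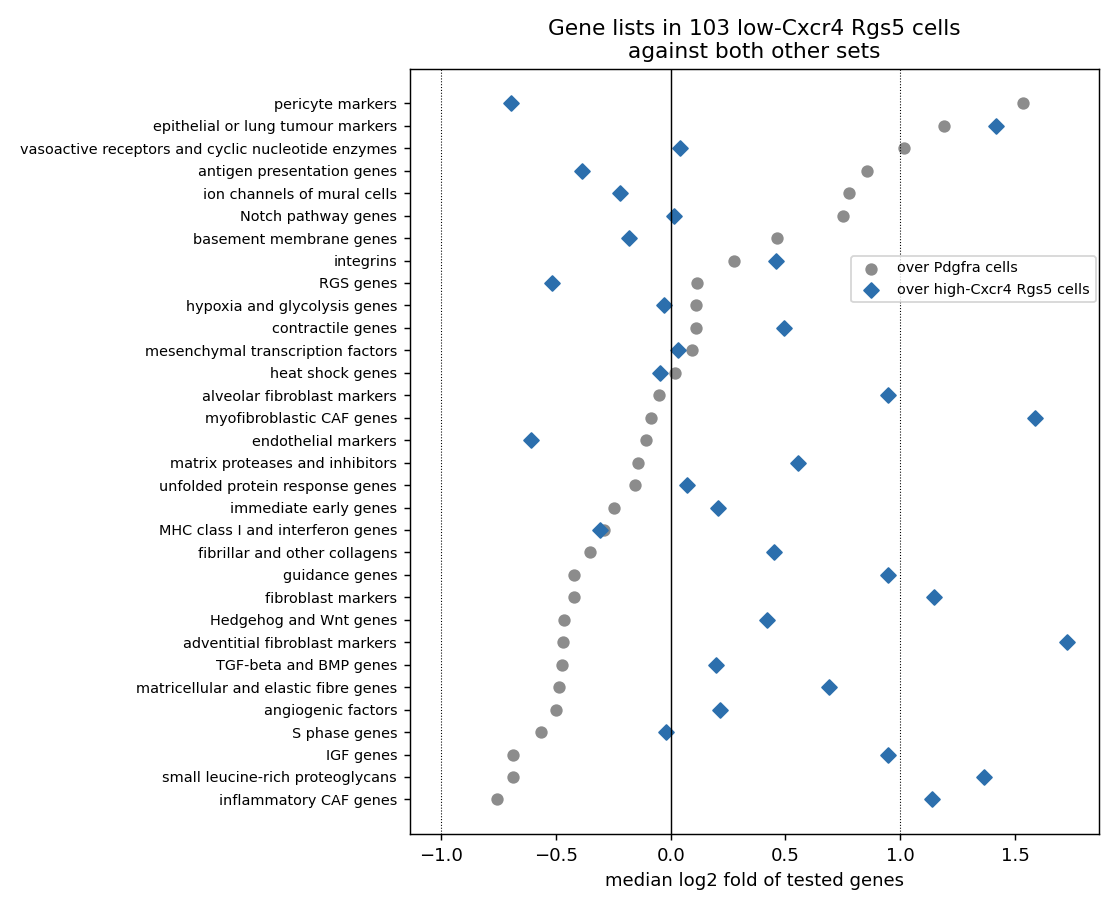
Each row is a gene list with at least 5 tested genes in both comparisons; grey circles give the median log2 fold of the low-Cxcr4 Rgs5 cells over the Pdgfra cells and blue diamonds that over the 100 high-Cxcr4 cells, with dotted lines at 2-fold. Pericyte markers lay at 1.54 and -0.70, contractile genes at 0.11 and 0.49 and fibroblast markers at -0.42 and 1.15.

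The cells nearest the line between Rgs5 and Pdgfra are given apart from the others as a description only, since this split uses the counts that chose the cells. The 31 cells with Rgs5 under 2 times Pdgfra had median levels of 339.7 CPM for Mcam, 262.2 for Notch3, 96.5 for Cspg4 and 262.1 for Dcn. In the other 72 cells the medians were 2072, 1200, 644 and 77.5 CPM. Median summed pericyte markers were 9099 and 22695 CPM, and median summed fibroblast markers 27249 and 18703 CPM. Median summed contractile genes were 12756 and 11559 CPM. In a set limited to 2-fold margins on both sides (72 cells against 220 Pdgfra cells), 4.10% of the genes tested were higher and 6.47% lower than in the Pdgfra cells, and 84% of the higher and 93.1% of the lower genes above were past 2-fold there too. Against the high-Cxcr4 cells 3.71% were higher and 2.40% lower.

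Within the low-Cxcr4 cells, pericyte genes moved together from cell to cell. Spearman's rho was 0.77 between Mcam and Cspg4, 0.70 between Mcam and Notch3, 0.63 between Notch3 and Heyl and 0.69 between Ebf1 and Notch3. The same pairs, in that order, had weaker values of 0.41, 0.32, 0.42 and 0.14 in the high-Cxcr4 cells. In the Pdgfra cells they had 0.11, 0.31, 0.47 and 0.30. The summed pericyte markers followed the summed basement membrane genes (0.73) more closely than the contractile genes (0.17) or the fibroblast markers (-0.18). Acta2 followed Tagln (0.60), less closely Myh11 (0.30) and Mcam (0.255), and hardly Notch3 (0.10) or Postn (0.01). These are descriptions over the 31 and 72 cells together, whose medians of Mcam, Notch3 and Cspg4 differed as given above. The part of that difference in the correlations was not tested. Depth ran from 25029 to 240496 counts. The correlation of Mcam with total counts was 0.07, that of Notch3 -0.16 and that of Dcn -0.29.

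The 10 most variable genes of the low-Cxcr4 cells were mostly carried by a few of them. The 10 highest cells held 94.02% of the sum of Spp1 (osteopontin), 89.6% of Ank, 86.6% of C3 (complement), 82.9% of Dlk1 and 87.8% of Hhip. For Igfbp5, Mki67, Ptgs2, Mfap4 and Sftpa1 they held 71.5 to 85.8%. Igfbp5 had a median of 65.5 and a highest level of 11841 CPM, Ptgs2, which makes prostaglandins, 48.1 and 7002 CPM, and Spp1 12.9 and 7699 CPM. Mki67, a gene of dividing cells, reached 100 CPM in 4 of the low-Cxcr4 cells (3.88%, 1.07 to 9.64) and in 17 of the Pdgfra cells (6.61%, 3.90 to 10.4).

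Some of the cells carried markers of epithelium. Of 11 epithelial or lung tumour markers tested, 7 were past 2-fold higher than in the Pdgfra cells (median log2 fold 1.19, and 0.0 by medians over cells), and 9 of 11 were higher than in the high-Cxcr4 cells. Their sum ran from 0 to 23907 CPM, with close medians of 680 and 626 CPM, and 10 of the low-Cxcr4 cells held 61.3% of it. It was above the summed fibroblast markers in 4 of the low-Cxcr4 cells and in 1 of the Pdgfra cells. The cell with the fewest pericyte markers had 16539 CPM of epithelial markers and 1963 CPM of fibroblast markers, which goes against its label. The defining gene Epcam had a count in 6.80% of the low-Cxcr4 cells (2.78 to 13.5) and in 4.67% of the Pdgfra cells (2.44 to 8.01). Sftpc had one in 80.6%, 78% and 82.1% of the low-Cxcr4, high-Cxcr4 and Pdgfra cells, a like share in every set.

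Antigen presentation genes went with these cells. Of 6 tested, 3 were past 2-fold higher (Cd74 at 97.98 against 45.3 CPM, H2-Ab1 at 72.4 against 26.7 and H2-Eb1 at 27.7 against 11.2). The sum of the list followed the epithelial sum across the low-Cxcr4 cells (rho 0.77). It did so to a like degree in the Pdgfra (0.74) and the high-Cxcr4 cells (0.72). In the columns without Sftpc, Cd74 and H2-Ab1 had log2 folds of -1.05 and -1.02 instead. Without the 10% of all 460 cells richest in epithelial, immune and endothelial markers, 90 low-Cxcr4 cells remained. There 0 of 7 epithelial and 0 of 5 antigen presentation genes were past 2-fold. The cells were removed by their epithelial sum among others, which the antigen presentation genes followed. Both counts therefore describe that choice and are no result. The pericyte count was then 20 of 28 higher and the contractile count 6 of 28 higher. The fibroblast count was 5 of 22 lower and 1 higher. With all cells these counts were 19 of 28, 5 of 28, and 6 of 23 lower with 1 higher. The part of other lineages in these groups was not tested.

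Markers of leukocytes were present at a like level in the low-Cxcr4 and the Pdgfra cells. Summed immune markers ran from 0 over 69.1 to 2975 CPM, against a median of 73.3 CPM in the Pdgfra cells. None of the 3 tested immune markers was past 2-fold against the Pdgfra cells, while all 6 tested were lower than in the high-Cxcr4 cells. The defining leukocyte gene Ptprc had a count in 8.74% of the low-Cxcr4 cells, 11.3% of the Pdgfra cells and 14% of the high-Cxcr4 cells. The myeloid gene Lyz2 had one in 82.5%, 84.4% and 88% of them, at medians of 46.7, 41.6 and 56.8 CPM, a few counts per cell. At least 2 immune markers were counted in 53.4%, 54.5% and 55% of the cells, and in 44.05%, 42.8% and 48.3% after thinning to 1 depth. The myeloid genes Chil3 and Ccl6 averaged 21.8 and 12.5 CPM against 248.4 and 130 CPM in the high-Cxcr4 cells. Without the cells richest in other lineages, 0 of 2 tested immune markers were past 2-fold. Immune markers helped to choose the cells removed, so that count is no result. The part of leukocyte genes in the differences from the high-Cxcr4 cells was not tested. No erythroid marker passed the filter.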

How the data were processed

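Each of the 460 samples is 1 cell, and its values are molecular barcode counts per gene in 1 table that the authors deposited (48440 genes). Per the submitters' processing notes, STAR and HTSeq were used with the build mm10; how reads became barcode counts is not given in the sources used here. Counts were divided by the cell's total and multiplied by 1000000 (CPM). For repeated symbols the table was reduced to 48321 genes. All cells were kept, no 2 columns were identical, and no doublet caller was run. As the labels name no animal, culture or batch, no test was made across samples; folds compare means of cells with 1 CPM added.

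The sets of cells and the gene lists were chosen with earlier results of these data known. Named genes follow a rule: the 15 largest folds in each direction against the Pdgfra cells and 8 against the high-Cxcr4 cells, among genes past 2-fold and detected in at least 50% of the higher set; pericyte, contractile and fibroblast genes past 2-fold or among the 8 most abundant of their list; the 3 most abundant and the 2 most different members per direction of each other list; and the 10 most variable and 15 most abundant genes. Jag1, Meox1, Cdh5, Epcam, Ptprc, Tagln and Cxcl12 were named outside it, after their values were seen.

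Variable genes were ranked on counts thinned to 56586 per cell, which left out 46 cells; 84 low-Cxcr4, 87 high-Cxcr4 and 243 Pdgfra cells remained. Alternatives changed the summary, the added CPM, the filter, the scaling, the depth, the cells and the limits. Python 3.11.15, numpy 2.4.6, pandas 2.3.3, scipy 1.17.1, statsmodels 0.14.6 and matplotlib 3.10.9 were used. Promoters came from RefSeq (GRCm38.p6). The strain's genotype is not reported here.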

Additional observations from a re-analysis of the deposited data

How the results depend on the processing

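The genes tested were higher or lower in 3.17% and 3.65% against the Pdgfra cells and in 5.48% and 2.32% against the high-Cxcr4 cells, and the underlying counts moved by over 1.5 times as follows. By medians, 10.6% and 6.47% of the genes were lower than in the Pdgfra and the high-Cxcr4 cells, and without the 5% highest cells of each gene 6.30% and 4.46%. With 10 CPM added, the 4 shares were 1.58%, 1.52%, 2.40% and 0.892%, and with a mean of at least 20 CPM, where fewer genes were tested, 2.51%, 2.94%, 3.51% and 1.65%. With a 2-fold margin between Rgs5 and Pdgfra, 6.47% were lower than in the Pdgfra cells. In the columns without Sftpc, with 30 low-Cxcr4 cells, 5.13% were higher and 8.19% lower than in the Pdgfra cells, and 7.94% lower than in the high-Cxcr4 cells. Leaving out cells with 100 CPM of Myh11 was chosen after seeing the data.

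Some named genes changed direction against the Pdgfra cells (log2 folds). By medians these were Ank (-3.87) and Dlk1 (-0.13); without the 5% highest cells Actg2 (-0.014), Ank (-0.87) and Ccl6 (0.009). Without the cells richest in other lineages they were Ccl6 (0.17) and Chil3 (0.022), and with the 2-fold margin Kdr (-0.71) and Sema3d (-0.52). In the columns without Sftpc they were Ank (-0.74), Cd74 (-1.05), H2-Ab1 (-1.02) and Mfap4 (0.17), and without the Myh11 cells Actg2 (-2.24) and Myh11 (-0.40). Against the high-Cxcr4 cells, Sftpa1 (-0.021) and Spp1 (-0.44) did so by medians and Sftpa1 (-0.017) without the cells richest in other lineages. With the margin, C3 (-0.008), Mki67 (-0.43), Thsd7a (-0.95) and Tmem119 (-0.19) did, in the columns without Sftpc Mki67 (-1.77), and without the Myh11 cells Lmod1 (-0.066) and Myh11 (-0.41). Where no other construction is named, the cause was not tested. No paired analysis was possible because the labels name no animal or culture that the sets share. No replicate could be left out, since all cells count as 1 sample.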
